A study of Mus musculus with 6 samples.

Results

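The CC chemokines described here are the 10 genes Ccl2, Ccl3, Ccl4, Ccl5, Ccl6, Ccl7, Ccl9, Ccl12, Ccl20 and Ccl25, picked by symbol from the 55357 genes of the expression table. Astrocytes grown from the cortex of C57BL/6 embryos at embryonic day 18 were sequenced 48 hours after transfection with BRAF KE (KE, 3 cultures). For its immunostained astrocytes, the paper describes a plasmid with FLAG-tagged BRAF KE under the CMV promoter, given with a GFP plasmid. It does not name the construct of the sequenced cultures. BRAF KE is a gain-of-function BRAF protein with a lysine-to-glutamate substitution, found in patients with RASopathies. The comparison group was 3 cultures of the same astrocytes that received no plasmid (NT). Both groups were primary cultures with endogenous Braf, and the dishes were shaken before the cells were replated. Cultures given an empty vector or wild-type BRAF were not analysed here, so BRAF KE and plasmid transfection cannot be told apart. Nothing in the labels says that the 3 cultures of a group came from separate animals, so the p-values measure the spread between these cultures only.

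CC chemokines are small secreted proteins with adjacent cysteines near the amino terminus, and they draw leukocytes along a gradient by binding G protein–coupled receptors. CCL2, CCL7 and CCL12 bind CCR2 on monocytes, CCL3, CCL4, CCL5, CCL6 and CCL9 attract macrophages and other leukocytes, most of them through CCR1, CCL20 binds CCR6 and CCL25 binds CCR9. In brain tissue, both astrocytes and microglia can make CC chemokines, among them CCL2 from reactive astrocytes and CCL3 and CCL4 from activated microglia.

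The 10 genes did not move as a family. Ccl2, Ccl5, Ccl7 and Ccl20 were upregulated in BRAF KE–transfected astrocytes, Ccl3, Ccl4, Ccl6, Ccl9 and Ccl12 were downregulated, and Ccl25 did not pass the test. The rises were 1.98- to 2.75-fold in mean normalized count and the falls 5.30- to 25.7-fold. Differentially expressed genes (DEGs) were those with an adjusted p-value under 0.05 in limma on log2(normalized count + 1), with Benjamini-Hochberg adjustment over 15280 tested genes. All 10 members passed the filter of a mean of at least 10 over the 6 cultures. In this comparison 51.3% of tested genes were DEGs, 25.3% upregulated and 26% downregulated, so 9 DEGs among 10 members is to be read against a background in which about every other gene was called. For 9 members no KE value lay within the range of the NT values or the reverse, which held for 59.9% of all tested genes. Over all tested genes the median absolute log2FC was 0.30, the 5th percentile of log2FC was −1.12 and the 95th was 1.01. All 5 downregulated members lay below that 5th percentile, and Ccl5 and Ccl7 lay above the 95th.

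**Figure D1:**
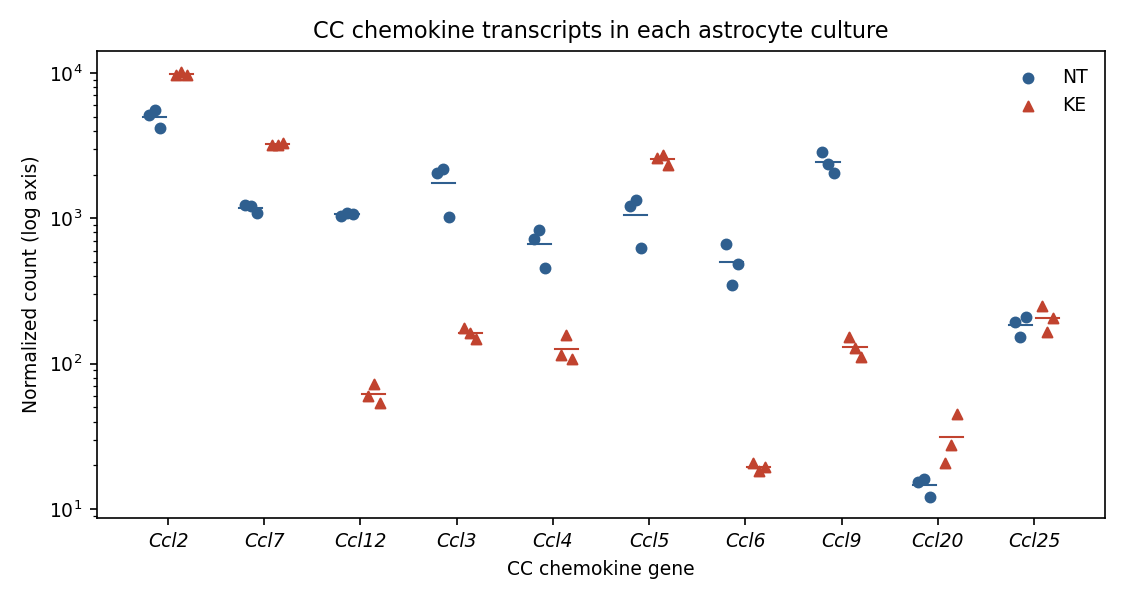
Normalized count (log axis) of each CC chemokine gene in the 3 NT cultures (circles) and the 3 KE cultures (triangles), with a line at each group's mean. Ccl25 is the single gene whose groups overlap, and Ccl6 has the widest gap, with KE values of 18.3 to 20.7 and NT values of 347 to 669.

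Braf, the transfected gene, was at 34933 normalized counts or more in each KE culture and at 946 or fewer in each NT culture, a log2FC of 5.37 with a standard error of 0.08. The defining astrocyte markers Gfap, Aqp4, Aldh1l1 and Slc1a3 were all present in both groups, at 10405 normalized counts or more in every culture, with log2FC of 0.87, 0.02, 0.72 and 0.25. Of 11 tested astrocyte markers 6 were upregulated and 2 downregulated, and their summed level was 159216 to 161464 in KE and 118499 to 125028 in NT. Markers of microglia and macrophages were also present, and 23 of the 24 genes of that list passed the filter and were downregulated, with a median log2FC of −3.33 (range −4.66 to −0.88). The remaining gene of the list, Siglech, was at 0. The summed level of these markers was 7078 to 9921 in KE and 61041 to 73103 in NT, and the defining markers Csf1r, Cx3cr1, Aif1 and Itgam fell with log2FC of −3.46, −3.97, −3.31 and −4.07. In bulk RNA, fewer cells of a type and less RNA per cell cannot be told apart. None of 11 lymphocyte markers reached the filter, and Cd3e and Nkg7 were at 0 in all cultures. Of 8 granulocyte and mast cell markers, Kit passed it, with a log2FC of −0.87. Oligodendrocyte lineage markers summed to 29787 to 34867 in KE and 38171 to 38399 in NT, with 7 of 9 tested downregulated and 1 upregulated (median log2FC −0.55). Neuron markers summed to 6845 to 7251 in KE and 8819 to 9495 in NT, with 2 of 8 tested upregulated and 2 downregulated. Endothelial, mural and fibroblast markers summed to 2774 to 2917 in KE and 3044 to 3938 in NT, with 3 of 9 tested in each direction. The part of these other cell types in the results was not tested.

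The gene starts give a further view of the members. RefSeq promoter windows on GRCm38.p6 were found for 6 of the 10 members, and not for Ccl2, Ccl4, Ccl5 and Ccl7. Each window printed below runs over the 250 bases before the RefSeq gene start, 5′ to 3′ on the gene's own strand. RefSeq starts need not be the starts of the Gencode spans given further below. Those of Ccl9 and Ccl6 lie further apart than the Gencode ones. They are shown for the 4 downregulated members that have one and for Ccl20, the upregulated member that has one. Capitals mark matches to any of 5 motifs.
Ccl12, chr11:82101595-82101844, plus strand: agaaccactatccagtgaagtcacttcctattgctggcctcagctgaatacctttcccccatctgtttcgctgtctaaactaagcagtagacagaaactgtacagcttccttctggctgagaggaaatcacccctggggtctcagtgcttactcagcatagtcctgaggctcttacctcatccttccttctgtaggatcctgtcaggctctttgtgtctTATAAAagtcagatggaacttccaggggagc
Ccl3, chr11:83649379-83649628, minus strand: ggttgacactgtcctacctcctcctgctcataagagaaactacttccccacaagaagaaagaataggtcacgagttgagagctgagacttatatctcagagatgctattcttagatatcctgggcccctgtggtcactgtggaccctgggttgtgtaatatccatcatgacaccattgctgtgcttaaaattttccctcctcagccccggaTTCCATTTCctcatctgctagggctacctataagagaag
Ccl6, chr11:83593088-83593337, minus strand: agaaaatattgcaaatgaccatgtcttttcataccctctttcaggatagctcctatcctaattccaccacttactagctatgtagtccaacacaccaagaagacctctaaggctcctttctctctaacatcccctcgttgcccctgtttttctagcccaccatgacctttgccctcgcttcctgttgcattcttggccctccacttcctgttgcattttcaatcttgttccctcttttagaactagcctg
Ccl9, chr11:83578637-83578886, minus strand: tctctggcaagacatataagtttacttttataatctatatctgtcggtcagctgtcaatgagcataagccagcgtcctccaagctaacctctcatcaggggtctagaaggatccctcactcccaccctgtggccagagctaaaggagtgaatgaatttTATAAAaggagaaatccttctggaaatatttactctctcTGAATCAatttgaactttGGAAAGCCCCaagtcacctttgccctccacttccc
Ccl20, chr1:83116516-83116765, plus strand: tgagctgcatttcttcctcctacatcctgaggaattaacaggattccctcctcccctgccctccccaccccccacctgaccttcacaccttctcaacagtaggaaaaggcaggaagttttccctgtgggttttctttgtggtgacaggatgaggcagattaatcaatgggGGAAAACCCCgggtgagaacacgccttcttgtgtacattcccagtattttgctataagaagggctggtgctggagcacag

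The motifs searched on both strands were TGANTCA (AP-1), GAAANNGAA (interferon regulatory factors), GAGGAAGT (PU.1) and the NF-kappaB motif, and the core promoter element TATAAA was searched on the gene's strand. Ccl20 held an NF-kappaB match from 80 to 71 bases before the start. Ccl9 held an NF-kappaB match at 35 to 26 bases, an AP-1 match at 53 to 47 bases and TATAAA at 92 to 87 bases before its RefSeq start. Ccl12 held TATAAA at 31 to 26 bases, the usual place of a TATA box. Ccl3 held the interferon regulatory factor motif on the reverse strand at 39 to 31 bases, and Ccl6 held no match to any of the 5. No match overlapped another. Of 32851 windows of this length, 3.90% held the NF-kappaB motif, 6.75% the AP-1 motif, 7.13% the interferon regulatory factor motif, 2.44% the PU.1 motif and 7.59% TATAAA. A match is a description of letters and not a measured site.

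Among the CCR2 ligands, Ccl2 and Ccl7 rose while Ccl12 fell. Ccl2 (ENSMUSG00000035385), which encodes the monocyte chemoattractant MCP-1, occupies positions 81926397 to 81928279 on the plus strand of chromosome 11 (GRCm39). Counts of Ccl2 after normalization were 9735, 10141 and 9631 in KE and 5093, 5591 and 4200 in NT. Every KE culture was above every NT culture, and the KE cultures lay closer together. The means of 9836 ± 269 and 4961 ± 705 (SD, n = 3 each) gave a log2FC of 1.00 (standard error 0.09, limma adjusted p = 4.7e-06). Ccl7 (ENSMUSG00000035373), which encodes MCP-3, starts 8.25 kb beyond the end of Ccl2 on the same strand and spans 81936532 to 81938351. It was at 3205, 3170 and 3290 in KE and at 1230, 1208 and 1082 in NT. The spread within each group was small beside the gap between them, and the log2FC was 1.46 (standard error 0.07, limma adjusted p = 3.0e-08). The summed astrocyte markers were also higher in these KE cultures, and their part in the rise of Ccl2 and Ccl7 was not tested.

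Ccl12 (ENSMUSG00000035352) encodes MCP-5, a mouse CCR2 ligand, and lies 54.3 kb beyond Ccl7 on the same strand, from 81992645 to 81994466. It was at 59.7, 73.0 and 53.4 normalized counts in KE against 1045, 1096 and 1077 in NT. The 3 NT cultures were nearly equal to one another, at 1072 ± 25.9, and the KE mean was 62.0 ± 9.97 (SD, n = 3 each). The log2FC was −4.10 (standard error 0.13, limma adjusted p = 4.3e-09), and the mean normalized count was 17.3-fold lower in KE. In NT cultures Ccl7 and Ccl12 had like levels per kb of transcript, 1454 ± 99.4 and 1335 ± 32.3 normalized counts per kb. In KE cultures the same levels were 3992 ± 76.2 and 77.3 ± 12.4. The within-culture difference between Ccl7 and Ccl12, log2 of their ratio, was 0.24, 0.14 and 0.01 in NT and 5.72, 5.42 and 5.92 in KE. That of Ccl2 to Ccl12 moved by 5.10, and that of Ccl2 to Ccl7 by −0.46, so Ccl7 rose more than Ccl2 in relative terms. None of the values of these 3 ratios overlapped between groups, and each had an exact two-sided permutation p of 0.1, the smallest that 3 against 3 cultures allow (0.125 after adjustment over 5 pairs). In the same cultures the microglia and macrophage markers fell with Ccl12, and their part in its fall was not tested.

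The inflammatory ligands of the second chromosome 11 cluster also divided, with Ccl5 up and Ccl3, Ccl4, Ccl6 and Ccl9 down. Ccl5 (ENSMUSG00000035042) encodes RANTES, which attracts T cells and monocytes through receptors such as CCR1 and CCR3, and lies on the minus strand of chromosome 11 from 83416602 to 83425942. It was at 2599, 2704 and 2311 normalized counts in KE and at 1206, 1344 and 627 in NT. The third NT culture was the lowest by far, and the groups did not overlap. The log2FC was 1.33 (standard error 0.22, limma adjusted p = 4.5e-04), and without that culture it was 0.99 with an adjusted p of 4.9e-06.

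Ccl3 (ENSMUSG00000000982) encodes MIP-1 alpha, a ligand of CCR1, and spans 83538670 to 83540191 on the minus strand. KE cultures had 176, 163 and 147 normalized counts of it and NT cultures had 2063, 2189 and 1022. Ccl4 (ENSMUSG00000018930) encodes MIP-1 beta, an attractant of macrophages and T cells, starts 13.2 kb from Ccl3 on the plus strand and spans 83553383 to 83555509, with normalized counts of 114, 156 and 109 in KE and 718, 836 and 456 in NT. As for Ccl5, the third NT culture was the lowest of its group for both genes, and the groups did not overlap. The log2FC of Ccl3 was −3.36 (standard error 0.23, limma adjusted p = 6.4e-07) and that of Ccl4 was −2.37 (standard error 0.21, limma adjusted p = 4.4e-06). The within-culture log2 ratio of Ccl3 to Ccl4 was 0.62, 0.06 and 0.44 in KE and 1.52, 1.39 and 1.16 in NT, a shift of −0.98 without overlap (exact two-sided permutation p = 0.1, adjusted 0.125). Ccl3 therefore fell further than its neighbour in all KE cultures. A long noncoding RNA annotated on the opposite strand, Gm53692, shares 276 exon bases with Ccl3, and the strand setting of the counting is not given in the sources used here.

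Ccl9 (ENSMUSG00000019122) encodes MIP-1 gamma and Ccl6 (ENSMUSG00000018927) encodes C10, CCR1 ligands made by myeloid cells. They lie side by side on the minus strand of chromosome 11, from 83463745 to 83473161 and from 83478708 to 83483913, with 5.55 kb between them. Ccl9 was at 152, 127 and 111 normalized counts in KE and at 2852, 2378 and 2040 in NT. Ccl6 was at 20.7, 18.3 and 19.5 in KE and at 669, 347 and 487 in NT. Both genes had KE values far below every NT value, and Ccl6 varied in NT while its KE cultures were nearly equal. The log2FC was −4.21 for Ccl9 (standard error 0.14, limma adjusted p = 5.6e-09) and −4.56 for Ccl6 (standard error 0.22, limma adjusted p = 5.1e-08). Mean normalized counts, a separate measure, were 18.7-fold lower for Ccl9 and 25.7-fold lower for Ccl6 in KE. Their within-culture log2 ratio, Ccl6 to Ccl9, changed by −0.35 with overlapping groups (exact two-sided permutation p = 0.3, adjusted 0.3). This value depended on single cultures, at −0.59 without the second NT culture and −0.23 without the third, and was −0.15 with a pseudocount of 5. The microglia and macrophage markers described above fell in the same cultures as Ccl3, Ccl4, Ccl6 and Ccl9, and their part in these falls was not tested.

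**Figure D2:**
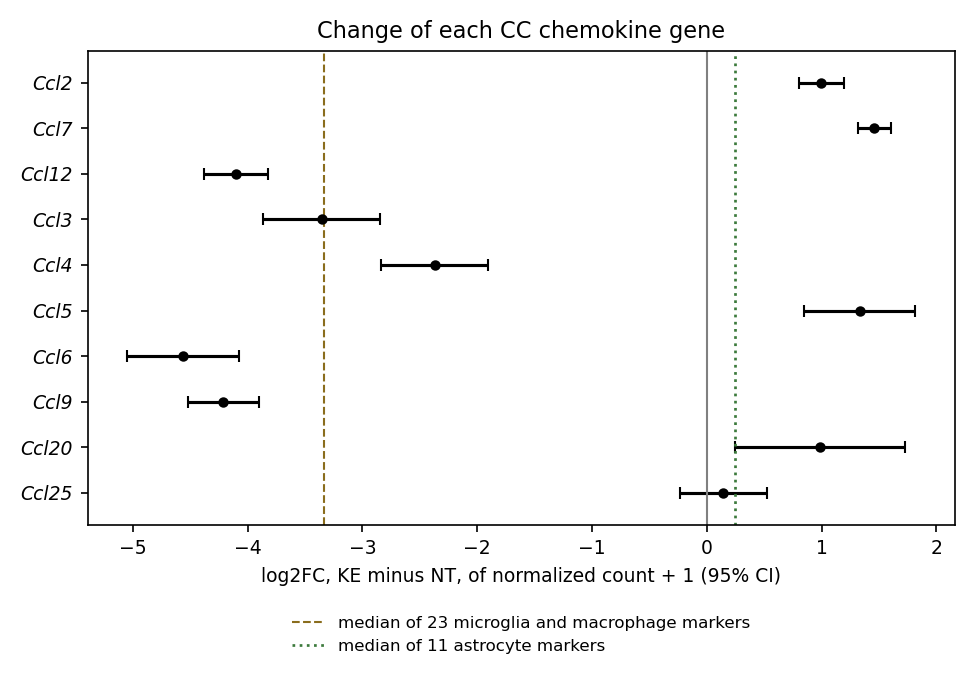
log2FC (KE minus NT) of each CC chemokine gene with its 95% confidence interval from limma, beside the median log2FC of 23 microglia and macrophage markers (dashed, −3.33) and of 11 astrocyte markers (dotted, 0.25). Ccl2, Ccl5, Ccl7 and Ccl20 lie right of 0, Ccl3 sits at the dashed line, Ccl6, Ccl9 and Ccl12 lie to its left and Ccl4 to its right.

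The remaining members lie outside chromosome 11. Ccl20 (ENSMUSG00000026166), which encodes the CCR6 ligand MIP-3 alpha, an attractant of dendritic cells and of a subset of T cells, is on the plus strand of chromosome 1 from 83094487 to 83096888. It was scarce, with normalized counts of 20.8, 27.8 and 45.1 in KE and 15.5, 16.2 and 12.2 in NT. The KE values varied more than the NT values, and the lowest of them was still above all NT values. The log2FC was 0.99 (standard error 0.34, limma adjusted p = 0.0302). The call was lost without KE culture 3, with a log2FC of 0.69 and an adjusted p of 0.141, and also without the second KE, first NT or the third NT culture, at adjusted p-values of 0.055, 0.0538 and 0.0768.

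Ccl25 (ENSMUSG00000023235), known as the thymus-expressed ligand of CCR9, spans 4374661 to 4540760 on the plus strand of chromosome 8. It was at 248, 164 and 207 normalized counts in KE and at 195, 153 and 209 in NT. The groups overlapped, and the difference of 0.14 in log2 had a 95% confidence interval from −0.23 to 0.52 (limma adjusted p = 0.505). Annotated exons of Ccl25 share 604 bases with those of Elavl1 on the opposite strand, 91 of them in the canonical Ccl25 transcript. Elavl1 was at 2646 to 3325 normalized counts, so reads of Elavl1 could reach the Ccl25 value if strand was not used in counting. No stretch of 31 bases in a transcript of any of the 10 members occurred in a transcript of another CC ligand.

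Both chromosome 11 clusters held genes of opposite direction. Ccl2, Ccl7 and Ccl12 all read from the plus strand within 68.1 kb, with the 2 upregulated genes on one side and the downregulated one on the other. Ccl8, which encodes MCP-2 and lies just beyond Ccl12, was at 6.26, 10.02 and 7.24 normalized counts in KE and 14.9, 18.6 and 8.67 in NT and did not pass the test (log2FC −0.73, limma adjusted p = 0.165). Ccl5, Ccl9, Ccl6, Ccl3 and Ccl4 lie in that order within 139 kb, Ccl5 at the end nearest the Ccl2 cluster and upregulated, the next 4 downregulated. Within 200 kb of this second cluster, 6 of 25 other genes were tested, of which 2 were upregulated and 1 downregulated. Mmp28, a matrix metalloproteinase gene, rose with a log2FC of 1.56 (limma adjusted p = 4.1e-05), from 46.8, 68.9 and 46.9 to 161, 156 and 158 normalized counts. Wfdc17, a gene expressed by activated macrophages, lies beyond Ccl4 and fell with a log2FC of −4.21 (limma adjusted p = 1.1e-08), with KE values of 55.5 to 84.1 against NT values of 1177 to 1507. Near Ccl20, 2 of 20 other genes were tested and Slc19a3, a thiamine transporter gene, rose with a log2FC of 1.55. Near Ccl25, 2 of 13 tested genes rose and 3 fell, with Prr36 at a log2FC of −1.25. Of all tested genes 25.3% were upregulated and 26% downregulated, so these small counts of neighbours are no result about the loci.

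**Figure D3:**
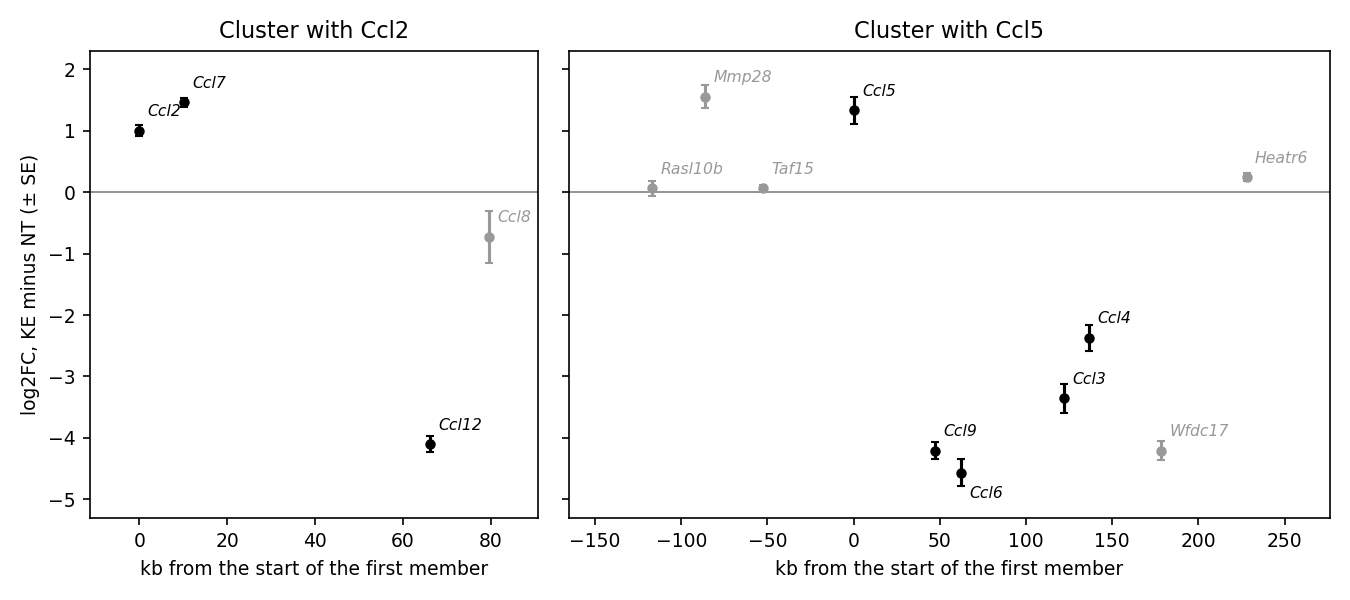
log2FC (KE minus NT, bars ± SE) of tested genes in the 2 chromosome 11 clusters by distance in kb from the start of the first member, with members in black and neighbours in grey. Asic2 and Ap2b1, which start more than 150 kb before the first member, are left out. In each cluster the upregulated members stand at the left and the downregulated ones to the right, next to Wfdc17 in the second cluster.

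Per kb of transcript, the order of the levels in NT cultures was Ccl2 (6102 ± 867 normalized counts per kb), Ccl3 (2265 ± 825), Ccl5 (1980 ± 711), Ccl7, Ccl12, Ccl4 (975 ± 283), Ccl9 (805 ± 135), Ccl6 (348 ± 112), Ccl25 (206 ± 31.7) and Ccl20 (18.2 ± 2.65). Within 1 SD, Ccl3 could not be set apart from Ccl5, Ccl5 from Ccl7, Ccl7 from Ccl12, Ccl4 from Ccl9 or Ccl6 from Ccl25. In KE cultures Ccl2 was first (12098 ± 331), followed by Ccl5 (4744 ± 381) and Ccl7 (3992 ± 76.2), and the rest lay at 229 or lower. Ccl25 (229 ± 46.1), Ccl3 (209 ± 18.7) and Ccl4 (184 ± 38.2) overlapped within 1 SD, as did Ccl9 (43.1 ± 6.86) and Ccl20 (38.95 ± 15.6). By its mean, Ccl25, a gene that did not pass the test, stood next to last in NT and next after Ccl2, Ccl5 and Ccl7 in KE. In the second KE culture it was at 182, below Ccl3 (210) and Ccl4 (228). The summed level of the 10 genes was 21637, 22256 and 20992 normalized counts per kb in KE and 16694, 17510 and 12262 in NT, 1.40-fold in the means. The 5 downregulated members made up 36.8% ± 1.54 of that sum in NT and 2.43% ± 0.20 in KE (SD, n = 3 each). The 4 upregulated members made up 61.8% ± 1.32 and 96.5% ± 0.22. Ccl2 alone went from 39.6% ± 2.32 to 55.9% ± 0.55. The 3 CCR2 ligands summed to 8892 ± 962 in NT and 16167 ± 282 in KE. These sums rest on members grouped with their direction known and carry no test.

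**Figure D4:**
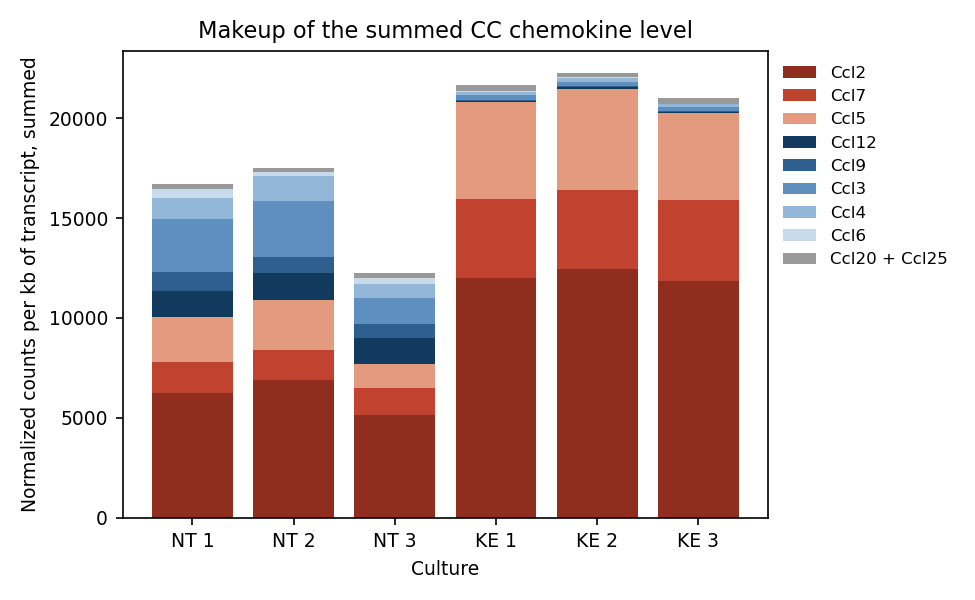
Summed level of the 10 CC chemokine genes in each culture, in normalized counts per kb of canonical transcript, stacked by gene with red shades for upregulated and blue shades for downregulated members. The blue part takes 36.8% of the sum in NT cultures on average and 2.43% in KE cultures, and the third NT culture has the lowest sum, 12262.

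The members were also set against the microglia and macrophage markers of the same culture. The quantity was a member's log2 level minus the mean log2 level of the 23 tested markers, and its change is given as KE minus NT. The mean log2 level of the markers itself fell by 3.21, so a gene with no change of its own is higher by that amount by construction. Ccl3 changed by −0.15 with overlapping groups, at 0.10, −0.45 and −0.10 in KE and 0.23, 0.30 and −0.54 in NT (exact two-sided permutation p = 0.6). Its level relative to the markers thus differed by less than the spread between cultures. Ccl12, Ccl9 and Ccl6 were lower relative to the markers in KE, by −0.89, −0.999 and −1.35, and Ccl4 was higher, by 0.84. Ccl2, Ccl5, Ccl7 and Ccl20 were higher by 4.20 to 4.67. Ccl25, whose own log2FC was 0.14, was higher by 3.36, near the value of a gene with no change. Apart from Ccl3, the 3 KE and the 3 NT values of each member did not overlap, and the exact two-sided permutation p was 0.1 for each, the smallest possible (0.111 adjusted over 10 members). As the markers themselves fell by 3.21, a gene with little change of its own, such as Ccl25, is also separated by construction. This count is therefore no result about the members, and no share over all genes is given for it.

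**Figure D5:**
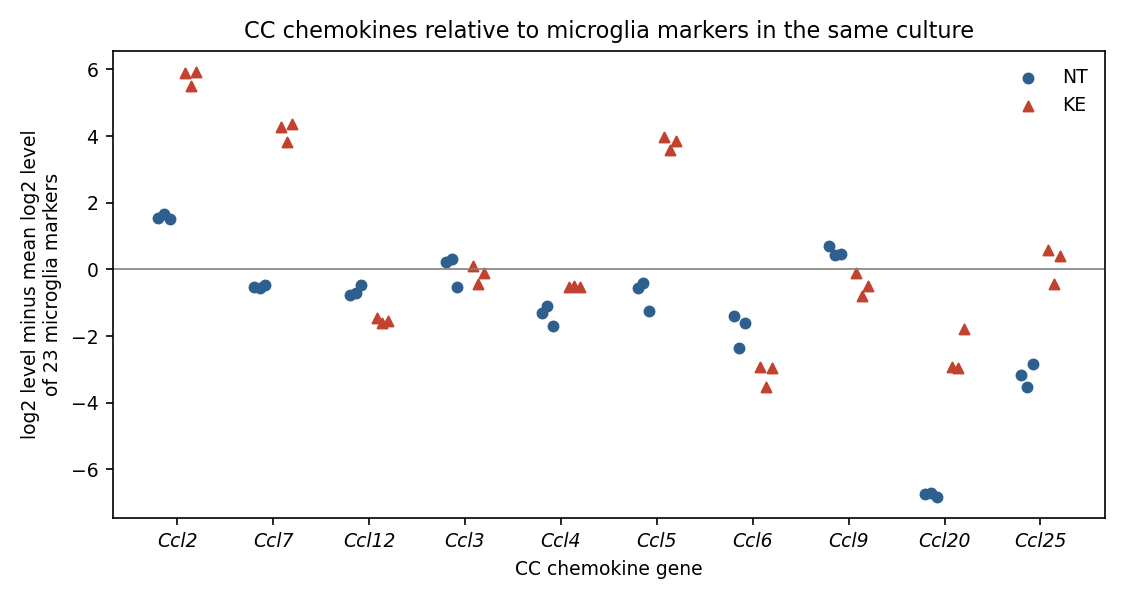
log2 level of each CC chemokine gene minus the mean log2 level of 23 microglia and macrophage markers in the same culture, for 3 NT (circles) and 3 KE (triangles) cultures. Ccl3 overlaps between groups, Ccl12, Ccl6 and Ccl9 are lower in KE, and the other members are higher in KE, Ccl4 by the least (0.84).

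Profiles across the 6 cultures were compared as distances between log2 levels centred on the NT mean. Such a distance rests largely on the size of the change from NT to KE, so near genes are genes of like log2FC. Whether they share a cell source with the member was not tested. The 3 tested genes nearest to Ccl2, the most abundant upregulated member, were Gm6548, Parp3 and Trim12c, at distances of 0.11, 0.11 and 0.14. Ccl9 was the most abundant downregulated member by mean normalized count over the 6 cultures, and Ccl3 was by level per kb. The genes nearest to Ccl9 were Msr1, which encodes a macrophage scavenger receptor, Wdfy4 and Gpr84, at distances of 0.21, 0.44 and 0.48. Those nearest to Ccl3 were Cybb, which encodes a subunit of the phagocyte NADPH oxidase, Cd5l and Bcl2a1a, at distances of 0.23, 0.25 and 0.31.

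Other genes of the chemokine system were read from the same fit. Of 14 other CC ligand genes 6 were at 0 in every culture and 4 were tested, and Ccl22, which encodes a CCR4 ligand, was downregulated (5.42, 13.8 and 11.8 in KE, 27.7, 40.4 and 22.9 in NT, log2FC −1.52, limma adjusted p = 0.0078). Besides Ccl8, the genes of the CCR10 ligands, Ccl27a and Ccl28, did not pass the test, with log2FC of 0.47 and 0.20. Among receptor genes for CC ligands, Ccr1, a receptor for Ccl3, Ccl5, Ccl6 and Ccl9, was at 9.04, 21.3 and 12.7 normalized counts in KE and 145, 101 and 151 in NT (log2FC −3.18, limma adjusted p = 8.0e-06). The atypical receptor genes Ccrl2, Ackr1 and Ackr4 did not pass the test, with log2FC of −0.18, −0.30 and 0.94. Transcripts of Ccr2, the receptor for the most abundant member Ccl2, were at 0, 2.29 and 0 in KE and 3.63, 5.64 and 1.04 in NT, under the filter. Ccr6, the Ccl20 receptor, was listed at 0 in all 6 cultures.

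Of 26 genes that act below chemokine receptors (G protein subunits, arrestins, receptor kinases, Rac activators), 25 were tested, 19 were downregulated and 2 upregulated, beside 26% and 25.3% of all tested genes, and their median log2FC was −0.72 beside 0.00. The leukocyte genes Dock2, Pik3cg, Rac2 and Vav1, which encode Rac activators, a PI3 kinase subunit and a Rac protein, fell with log2FC of −3.85, −3.83, −3.70 and −3.20. The median over the microglia and macrophage markers was −3.33 in the same cultures, and the part of these markers in the falls of the list was not tested. The upregulated genes, Gnai2 and Gnb2, which encode G protein subunits, had log2FC of 0.17 and 0.18. Of 21 regulators of chemokine genes (NF-kappaB, interferon regulatory, STAT, AP-1 and related factors), 15 were upregulated and 4 downregulated, beside the same background of 25.3% and 26%, with a median log2FC of 0.34. The 4 downregulated regulators were Spi1, which encodes PU.1 and is also on the microglia and macrophage list, Irf8, Irf5 and Rel, with log2FC of −3.69, −2.79, −2.42 and −0.98. The single genes of these lists were named after their values were seen.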

How the data were processed

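RNA-seq values of 3 KE and 3 NT cultures, grouped by their labels, were used. The authors deposited a normalized signal per gene: Salmon counts divided by DESeq2's size factors, after trimming with Trim Galore and alignment with STAR, tools also listed in the submitters' processing notes. The study's methods give GRCm39 with Gencode models, in a paragraph that names the hippocampus and spheroid samples. The notes list GRCh38, but the gene identifiers are mouse. Size factors even out the totals (30472429 to 30895529), so these are not the depth. From the most frequent low value, the depth was approximately 24500000 to 34100000 reads, least in the second KE culture. Whole reads were not recovered (74.7% to 77.6% of low values within 0.1 of a whole multiple), so no count test was run.

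log2(normalized count + 1) of genes with a mean of at least 10 was compared between KE and NT by limma (version 3.58.1, R 4.3.3) with a variance trend, and p-values were adjusted by Benjamini-Hochberg. On this scale log2FC understates the change of low genes. The fit was tested on simulated data. Within-culture ratios were compared with exact permutation tests. Coordinates are from Gencode vM39 on GRCm39, which held 54749 of the 55357 identifiers. Promoters are from RefSeq on GRCm38.p6 and were not converted between builds.

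The members and gene lists, written from general knowledge, were chosen with earlier results of these data known. Values of some receptor genes are not reported here. The text names all members, other tested CC ligands and receptors, defining cell type markers, neighbours called with an absolute log2FC over 1, and the 3 nearest profiles of the most abundant member in each direction, with Ccl3 added after its values were seen. Alternatives were pseudocounts of 0.5 and 5, no filter or a minimum of 50, quantile and 75th percentile scaling, limma without the trend, the replicate number as a block, and leaving out each culture.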

Additional observations from a re-analysis of the deposited data

How the results depend on the processing

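Of 209 counts and log2FC values recomputed under the alternatives, 204 had the same sign and the same outcome of the test as reported (counts: within 1.5 times). Of 120 recomputed within-culture ratios, whose exact test cannot pass its threshold at this size, 118 kept their sign. Members called stayed at 5 downregulated and 3 or 4 upregulated, and DEGs over all genes ranged from 6776 to 8046. The call of Ccl20 was lost with no filter on low genes (log2FC 0.99, adjusted p = 0.0593) and in 4 of 6 fits that left out a culture, where its log2FC ranged from 0.69 to 1.23. With a minimum mean of 50, Ccl20 was not fitted. The change of Ccl3 relative to the microglia and macrophage markers, −0.15 with all cultures, turned to 0.0062 without the second KE culture and 0.0073 without the second NT culture, within a range of −0.41 to 0.0073 over the cultures left out. The cause was not tested. Cultures with the same number deviated together weakly (r across genes of 0.06, 0.07 and 0.07, against −0.05 to −0.01 for different numbers, each culture being closest to its own number), and no source states a pairing. With the replicate number as a block there were 8046 DEGs in place of 7844, 4 members remained upregulated and 5 downregulated, and Ccl20 had an adjusted p of 0.049. No depth per gene is known. The most frequent low value, taken as about 1 read, was 0.90 (first KE culture) to 1.25 (second KE culture) normalized counts. Low genes such as Ccl20 and Ccr2 thus rest on few reads, and read sampling was not separated from the spread between cultures. With 3 cultures a group, an exact test cannot give a p under 0.1.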
